A study of Mus musculus with 11 samples.

Results

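The genes described here are 53 genes of DNA replication and mitosis, chosen by symbol from the 48299 gene rows of the count table. They fall into 25 genes that act in S phase and 28 that act in G2 and mitosis, called the S genes and the G2/M genes below. The choice went by symbol and not by a cut on measured values, but earlier results of these data were known. All 53 were present and passed the filter on low counts. The cells were WFU3, a mouse line labelled as prostate epithelial stem cells, infected with lentiviral short hairpins and sequenced as bulk polyadenylated RNA. RNA was taken 24 h after plating.

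The 11 libraries formed 4 groups. The shControl group held 3 libraries with control hairpins alone: replicate 1 from an unnumbered line at passage 30 with the puromycin and neomycin vectors, and replicates 2 and 3 from control clones 4 and 5 at passage 52 with the GFP and puromycin vectors. The shMap3k7 group held 1 library of each of clones 1 and 7, at passages 49 and 47, which carry a GFP hairpin vector against Map3k7, the gene of the kinase TAK1, and a control hairpin in the puromycin vector. The shChd1 group held 2 libraries, hairpin constructs 96526 at passage 52 and 96528 at passage 50 against the chromatin remodeller Chd1, both in control clone 4. In the shDouble group were 4 libraries, with the same 2 Chd1 constructs in Map3k7 clone 1 at passage 49 (replicates 1 and 2) and in clone 7 at passage 48 (replicates 3 and 4). Every Map3k7 library therefore came from 1 of 2 clones, so Map3k7 knockdown and the line that carries it cannot be told apart. Every library with Chd1 hairpins alone came from 1 clone, so shChd1 against shControl mixes Chd1 knockdown with line. Chd1 hairpins can be compared within clones 4, 1 and 7, each with only 1 library without them. Nothing in the labels says that libraries came from separate cultures, so p-values measure only the spread between these libraries.

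Library totals were 14132371 to 23163709 counts. Levels are given as CPM, a gene's count scaled to a common library size, with TMM factors that align the bulk of genes between libraries. Map3k7 stood at 124, 137 and 140 CPM in shControl and at 39.3 to 43.0 CPM in the 6 libraries with its hairpin. Chd1 stood at 195 to 212 CPM in shControl, 221 and 238 in shMap3k7, 145 and 150 in shChd1, and 162 to 198 in shDouble. It was called lower in shChd1 against shControl (-0.46 ± 0.10, adjusted p = 0.047 by edgeR) but neither in shDouble against shControl (-0.13 ± 0.09, adjusted p = 0.29) nor in shDouble against shMap3k7 (-0.30 ± 0.10, adjusted p = 1). Of the 12 prostate epithelial markers Krt8, Krt18, Krt14, Epcam and Cdh1 were high, their whole list summing to 2060 to 10561 CPM, while the luminal marker Pbsn was at 0 in all 11 libraries. The epithelial sum differed between groups, at 3873 to 9712 CPM in shControl, 2060 and 2322 in shChd1 and 9992 to 10561 in the 6 Map3k7 hairpin libraries. So did the fibroblast sum, at 26.4 to 100.2 CPM in shControl, 128 and 134 in shChd1 and 5.47 to 10.7 in the Map3k7 hairpin libraries. The immune list summed to 1.01 to 2.12 CPM. The endothelial list summed to 39.3 CPM in shControl replicate 1 and to 0.942 to 1.87 CPM elsewhere. In bulk RNA, fewer cells in a cycle phase and less RNA of its genes per cell cannot be told apart.

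Cells copy their DNA in S phase and divide it in mitosis. In G1, Cdc6 and Cdt1 load the Mcm2 to Mcm7 ring onto origins, and Gmnn, geminin, blocks Cdt1 once replication has begun. E2F transcription factors, released from RB proteins by cyclin-dependent kinases, switch on the S genes. The genes of mitosis peak later and are controlled largely by the DREAM and MuvB complexes with B-Myb and FoxM1, which act through promoter elements named CHR (cell cycle genes homology region) and, together with the factor NF-Y, the CCAAT box.

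Promoters are shown because the 2 gene sets differed in the elements they hold. RefSeq promoter windows (build GRCm38.p6, 250 bases before to 50 after a gene's RefSeq start) were found for 42 of the 53 genes, 19 S and 23 G2/M. The 150 bases just before the start are printed below, 5′ to 3′ on the gene's own strand, with every match to the letters searched in capitals: TTCCCGC or TTGGCGC for E2F, TTTGAA or TTCGAA for CHR, and CCAAT, on either strand, where a match on the other strand is printed as its reverse complement. No letters of 1 motif lie within those of another, though neighbouring matches may overlap. Chosen were up to 4 called genes of each set with the smallest adjusted p. Stretches that hold bases of a GENCODE exon (those of Pcna, Prim1, Ube2c, Cdca8, Bub1 and Cdk1) were passed over, and Mcm6 and Mcm5 were added after the matches were seen. The S gene stretches are Fen1 (chr19:10204394-10204543, minus strand), Mcm10 (chr2:5012792-5012941, minus strand), Mcm3 (chr1:20820313-20820462, minus strand), Pola1 (chrX:93632156-93632305, minus strand), Mcm6 (chr1:128359706-128359855, minus strand) and Mcm5 (chr8:75109359-75109508, plus strand):
Fen1: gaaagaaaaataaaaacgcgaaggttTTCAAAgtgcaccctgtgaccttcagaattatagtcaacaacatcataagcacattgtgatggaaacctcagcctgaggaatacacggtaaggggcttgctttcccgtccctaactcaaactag
Mcm10: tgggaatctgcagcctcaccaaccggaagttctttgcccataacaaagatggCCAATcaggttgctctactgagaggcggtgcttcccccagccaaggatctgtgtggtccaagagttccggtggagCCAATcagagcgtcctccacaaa
Mcm3: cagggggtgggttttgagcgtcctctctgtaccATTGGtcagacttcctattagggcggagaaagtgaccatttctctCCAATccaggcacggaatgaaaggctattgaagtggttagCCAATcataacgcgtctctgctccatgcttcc
Pola1: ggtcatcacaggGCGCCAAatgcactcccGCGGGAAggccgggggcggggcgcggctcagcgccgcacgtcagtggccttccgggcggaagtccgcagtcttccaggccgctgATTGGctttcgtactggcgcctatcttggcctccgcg
Mcm6: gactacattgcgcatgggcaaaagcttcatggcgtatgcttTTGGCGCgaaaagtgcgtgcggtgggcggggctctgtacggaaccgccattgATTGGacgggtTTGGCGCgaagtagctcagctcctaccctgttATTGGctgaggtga
Mcm5: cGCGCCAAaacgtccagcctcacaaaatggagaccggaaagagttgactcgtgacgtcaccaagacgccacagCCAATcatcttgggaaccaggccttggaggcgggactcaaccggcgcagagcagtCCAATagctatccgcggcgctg

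The G2/M gene stretches are Nusap1 (chr2:119618148-119618297, plus strand), Top2a (chr11:99024190-99024339, minus strand), Kif11 (chr19:37376232-37376381, plus strand) and Plk1 (chr7:122159285-122159434, plus strand):
Nusap1: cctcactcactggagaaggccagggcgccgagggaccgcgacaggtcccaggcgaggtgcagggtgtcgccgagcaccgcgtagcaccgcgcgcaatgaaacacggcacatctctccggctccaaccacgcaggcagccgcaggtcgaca
Top2a: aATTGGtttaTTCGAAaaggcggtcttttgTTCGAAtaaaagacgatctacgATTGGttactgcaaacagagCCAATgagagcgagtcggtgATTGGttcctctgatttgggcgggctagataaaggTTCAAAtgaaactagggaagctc
Kif11: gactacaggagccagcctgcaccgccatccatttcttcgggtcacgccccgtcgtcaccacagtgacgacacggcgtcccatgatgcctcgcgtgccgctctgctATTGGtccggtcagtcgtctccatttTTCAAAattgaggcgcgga
Plk1: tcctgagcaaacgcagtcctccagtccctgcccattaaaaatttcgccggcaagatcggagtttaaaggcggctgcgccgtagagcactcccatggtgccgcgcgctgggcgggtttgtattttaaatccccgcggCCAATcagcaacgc

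E2F letters were found in the whole 300-base window of 9 of 19 S genes (47.4%), 3 of 23 G2/M genes (13%) and 6.93% of all 27025 RefSeq promoters. CHR letters were found for 4 of 19 S genes (21.1%), 18 of 23 G2/M genes (78.3%) and 19.4% of all promoters. The CCAAT box was common to both sets, at 12 of 19 (63.2%) and 20 of 23 (87.0%) against 37.9% of all promoters. All 18 G2/M promoters with CHR letters held a CCAAT box too, a pairing found in 3 of 19 S genes and 7.70% of all promoters. The median CCAAT match of the G2/M genes began 74.5 bases before the start and the median CHR match 15 bases before it. Top2a has 3 CHR and 4 CCAAT matches in its printed stretch. Matches after the start are not printed, and that is where Mcm3 has its 3 E2F matches and Plk1 its CHR match. Fen1 and Mcm10 had no E2F letters and Nusap1 none of the letters searched. The RefSeq starts of Fen1 and Mcm5 lie 224 and 60 bases before the first base of the gene in GENCODE. Their windows, which end 50 bases after the RefSeq start, do not reach that base. The search was chosen after the expression results were seen, these were the only letters tried, and a match is no measured binding. The RefSeq start need not be the one these cells use.

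**Figure D1:**
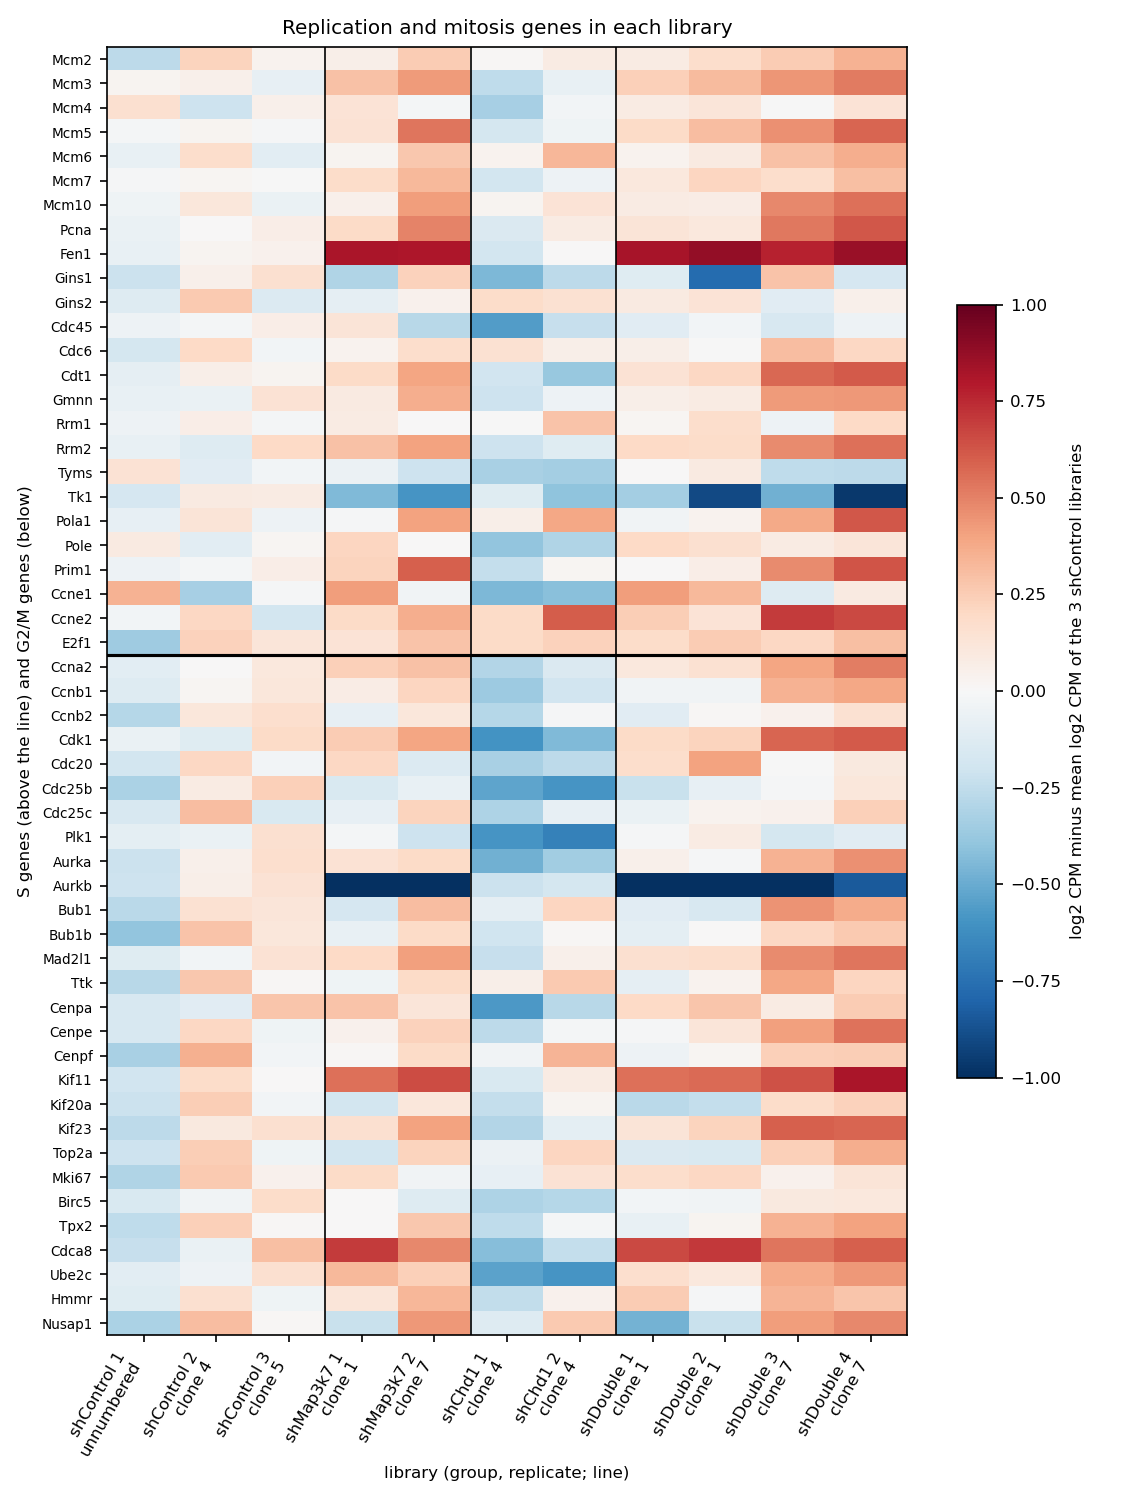
Heat map of the 53 genes (rows, S genes above the line, G2/M genes below) in the 11 libraries (columns, by group and line). Colour is the log2 CPM of a library minus the mean log2 CPM of the 3 shControl libraries, drawn at the end of the scale where it passes 1 in size. Fen1 and Kif11 are red and Aurkb and Tk1 blue in all 6 libraries with the Map3k7 hairpin, shControl 1 is blue for all G2/M genes, and most genes are redder in clone 7 than in clone 1.

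All 53 genes were expressed at levels that allow comparison. Per kilobase of exon, the mean level over the 11 libraries was highest for Pcna, the sliding clamp of the replication fork (105 CPM per kb), Mcm7 of the replicative helicase (85.0) and Top2a, the topoisomerase that untangles sister DNA (83.5), and lowest for Cdc25c, a phosphatase that activates Cdk1 (4.35). Most genes varied little. The highest library exceeded the lowest by 1.26-fold for Rrm1, the large subunit of ribonucleotide reductase, and by 2.37-fold for Aurkb, the kinase of the chromosomal passenger complex, with Cdk1 (2.31-fold) and Cdca8 (2.19-fold) next. Across the 11 libraries, which share lines, the median pairwise correlation of log2 CPM was 0.38 among the S genes, 0.59 among the G2/M genes and 0.47 between the sets. Tpx2, a spindle assembly factor, followed the other G2/M genes most closely, with a median correlation of 0.81. Tk1 (-0.56), Gins2 (-0.23) and Tyms (-0.22) ran opposite to the other S genes, and Aurkb (-0.35) to the other G2/M genes.

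The S genes and the G2/M genes were compared by their medians in each library, as log2 CPM minus the shControl mean. In the order of replicates, the S median was -0.07, 0.05 and 0.02 in shControl, 0.13 and 0.29 in shMap3k7, -0.18 and -0.03 in shChd1, and 0.08, 0.13, 0.30 and 0.35 in shDouble. For the G2/M genes the median was -0.20, 0.13 and 0.11 in shControl, 0.03 and 0.22 in shMap3k7, -0.27 and -0.05 in shChd1, and -0.02, 0.03, 0.34 and 0.32 in shDouble. Both sets stood highest in the 3 clone 7 libraries and lowest in shChd1 replicate 1 and shControl replicate 1. The S median was above that of every shControl and shChd1 library in all 6 Map3k7 hairpin libraries, whereas the G2/M medians of clone 1 lay within the shControl range.

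The S median minus the G2/M median averaged -0.01 ± 0.13 (SD, n = 3) in shControl, 0.09 ± 0.03 (n = 2) in shMap3k7, 0.06 ± 0.05 (n = 2) in shChd1 and 0.05 ± 0.07 (n = 4) in shDouble, so the group differences lay within the shControl spread. That spread came from shControl replicate 1, in which 0 of 28 G2/M genes and 5 of 25 S genes were above the shControl mean. This library also had the earliest passage, other vectors and the high endothelial sum given above, and their part in the result was not tested. Without it the differences were 0.13 in shMap3k7 and 0.15 in shChd1. Without shControl replicate 2 they were 0.017 and -0.015. The median over all genes tested was between -0.01 and 0.01 in every library.

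**Figure D2:**
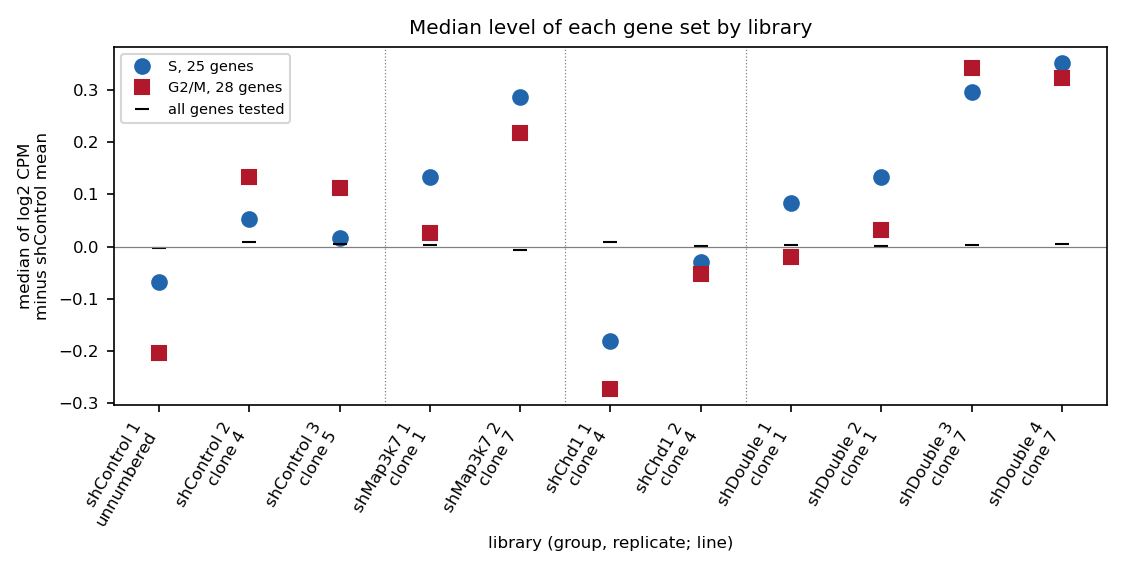
Median over the 25 S genes (circles), the 28 G2/M genes (squares) and all genes tested (dashes) in each library, as log2 CPM minus the shControl mean; dotted lines part the 4 groups. Clone 7 libraries reach 0.22 to 0.35 in both sets, clone 1 libraries -0.02 to 0.13, and shControl 1 and shChd1 1 lie lowest.

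Map3k7 knockdown alone, shMap3k7 against shControl, came first. A gene is called here when its adjusted p is under 0.05 in edgeR's quasi-likelihood test with Benjamini-Hochberg adjustment over all 14346 genes tested. Of the 53 genes 3 rose and 1 fell, or 7.55%, beside 11.9% of all genes, of which 4.86% rose and 7.08% fell. By sign, 43 of 53 fold changes were positive, beside 7057 of all 14346 genes. The median log2 fold change was 0.19 over the S genes, 0.10 over the G2/M genes and -0.01 over all genes.

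Fen1, the flap endonuclease that trims Okazaki fragments, rose most. It measured 72.5, 78.1 and 78.9 CPM in shControl, 134 and 134 in shMap3k7, 67.5 and 76.8 in shChd1, and 136, 141, 130.0 and 139 in shDouble. All 6 libraries with the Map3k7 hairpin lay above the other 5. Its log2 fold change was 0.81 ± 0.09 (SE) in shMap3k7 against shControl (adjusted p = 9.4e-04 by edgeR). Aurkb, which corrects faulty attachments of chromosomes to the spindle, fell. It measured 71.3, 85.5 and 90.9 CPM in shControl, 38.4 and 39.0 in shMap3k7, 70.9 and 72.6 in shChd1, and 39.4, 39.4, 40.1 and 45.9 in shDouble. Again the 6 Map3k7 hairpin libraries stood apart from the other 5, on the low side. The log2 fold change was -1.09 ± 0.12 (adjusted p = 9.8e-04 by edgeR). Both calls held under all 18 alternatives run, with the adjusted p reaching 0.036 for Fen1 and 0.035 for Aurkb.

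Kif11, the motor that pushes spindle poles apart, measured 104, 135 and 119 CPM in shControl, 174 and 186 in shMap3k7, 107 and 126 in shChd1, and 174, 176, 184 and 209 in shDouble. All libraries with the hairpin were above all without, and the log2 fold change was 0.59 ± 0.13 (adjusted p = 0.018 by edgeR). Cdca8, borealin, which sits with Aurkb in the passenger complex, measured 55.1, 61.7 and 79.5 CPM in shControl, 105 and 90.0 in shMap3k7, 48.0 and 54.7 in shChd1, and 102, 105, 93.4 and 97.8 in shDouble. It too did not overlap between libraries with and without the hairpin, with a log2 fold change of 0.58 ± 0.15 (adjusted p = 0.032 by edgeR). The kinase of the complex thus fell in the same libraries in which borealin rose. Birc5, survivin, another member of that complex, measured 82.0, 89.0 and 103 CPM in shControl and 91.1 and 83.1 in shMap3k7. Its values overlapped and it was not called. Incenp, the scaffold of the complex and no member of the 53, measured 159, 214 and 204 CPM in shControl and 286 and 310 in shMap3k7 and was called higher (0.63 ± 0.12, adjusted p = 0.010 by edgeR). The calls of Kif11 and Cdca8 were lost when either shMap3k7 library was left out, when only these 2 groups were fitted, and when counts were summed per line, each of which left 2 of the 4. Over the 18 alternatives Kif11 was called in 13 and Cdca8 in 8.

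Position on the chromosomes moved with these calls. Fen1 (chromosome 19, bases 10199132 to 10204169, minus strand) and Kif11 (chromosome 19, bases 37376403 to 37421859, plus strand) are the 2 members on chromosome 19, and both were called higher, against 1 of 51 members elsewhere. Over all 468 genes tested on chromosome 19 the median log2 fold change was 0.36. Within 2 Mb, the median was 0.45 over 59 genes around Fen1 and 0.54 over 21 genes around Kif11. Of these neighbours 25 were called higher and 3 lower around Fen1, and 11 higher and 2 lower around Kif11. For Cdca8 (chromosome 4, bases 124918465 to 124939311, minus strand) it was 0.29 over 45 genes. Around Aurkb (chromosome 11, bases 69045647 to 69051664, plus strand) it was -0.10 over 97 genes, beside -1.09 for Aurkb itself. With each chromosome's median subtracted, Fen1 kept a log2 fold change of 0.47 and Aurkb one of -1.05, both still called, whereas Kif11 at 0.26 and Cdca8 at 0.39 were not. The windows and the split by chromosome were chosen after the values were seen, and DNA copy number was not measured.

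Among other genes of the same pathways, 16 of 180 tested rose and 1 fell in shMap3k7 against shControl (9.44% beside 11.9% of all genes). On chromosome 19, 7 of 9 rose (Cdca5, Hells, Incenp, Kif20b, Pola2, Pold4 and Smc3), against 9 of 171 elsewhere. Over all genes tested on that chromosome the median log2 fold change was 0.36, as given above. The share of them called is not given, so the split cannot be read as particular to these pathways. Of 21 genes of G1 cyclins, RB and E2F 1 rose: Cdc25a, a phosphatase that activates G1 and S phase kinases, measured 49.8, 46.0 and 53.3 CPM in shControl and 85.2 and 84.0 in shMap3k7 (log2 0.77 ± 0.10, adjusted p = 0.0020 by edgeR). Of 6 CDK inhibitors 1 fell: Cdkn2c, an inhibitor of Cdk4 and Cdk6, measured 33.5, 45.8 and 32.9 CPM in shControl and 22.0 and 17.96 in shMap3k7 (log2 -0.90 ± 0.20, adjusted p = 0.018 by edgeR). Of 42 genes of the fork and nucleotide supply 7 rose, among them Rpa2, which coats single strands (0.75 ± 0.12), Pola2 (0.60 ± 0.10), Pold4 (1.21 ± 0.23) and Dna2 (0.78 ± 0.16). Cohesin, condensin and kinetochore genes gave 4 of 31, such as Cdca5, sororin (0.71 ± 0.09), and spindle genes 4 of 39, such as Dlgap5 (0.54 ± 0.12). None of 17 origin genes or 24 genes of mitotic entry passed.

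**Figure D3:**
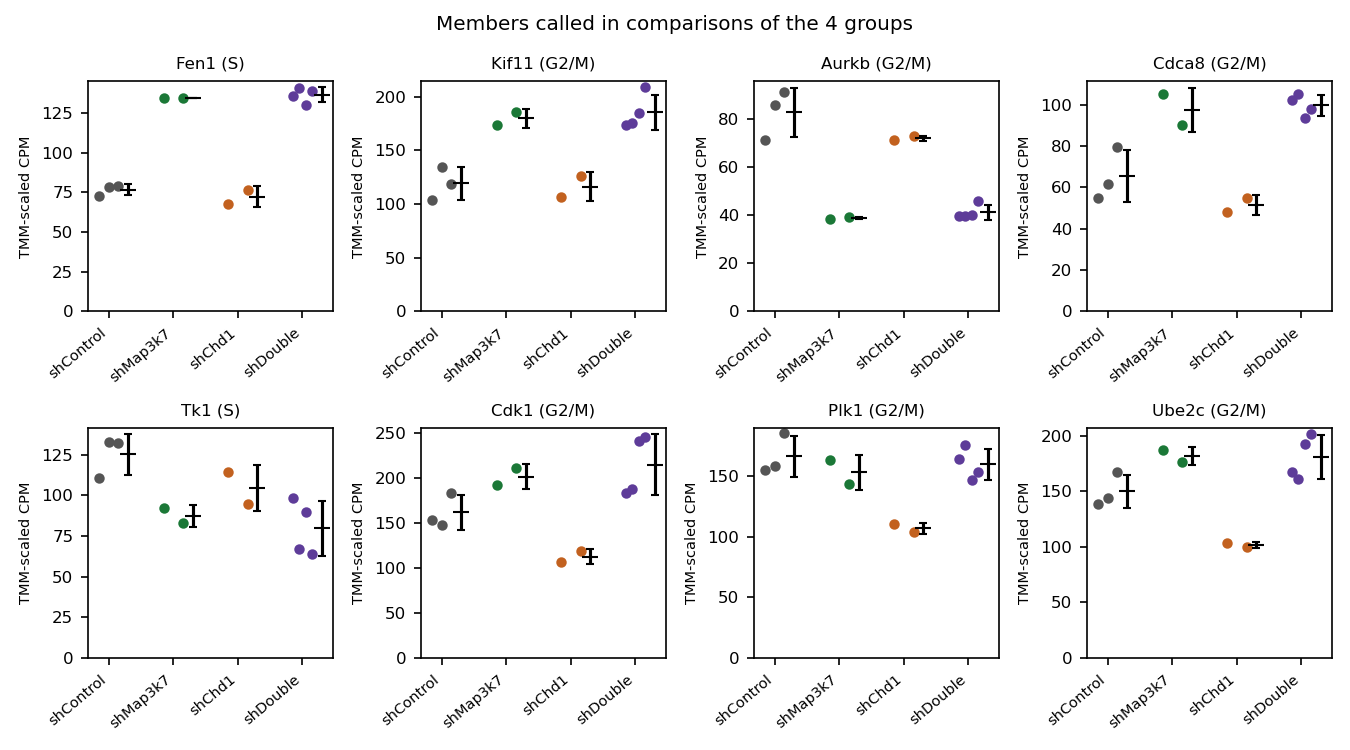
TMM-scaled CPM of 8 called genes in each library (points, replicates left to right), with the group mean ± SD (bars; n = 3, 2, 2 and 4). Fen1, Kif11 and Cdca8 lie higher and Aurkb lower in every shMap3k7 and shDouble library than in any shControl or shChd1 library; Plk1 and Ube2c are lowest in shChd1.

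The same knockdown in libraries with Chd1 hairpins, shDouble against shChd1, shares no library with the comparison above but takes its Map3k7 libraries from the same 2 clones. Here 22 genes rose and 1 fell. Both directions together made 43.4% of the 53, near the 44.8% of all genes. The balance of directions differed, since of all genes 22.6% were called higher and 22.2% lower. The S genes gave 8 of 25, with a median of 0.26, and the G2/M genes 15 of 28, with a median of 0.38. Fen1 (0.92 ± 0.09), Kif11 (0.67 ± 0.13), Cdca8 (0.96 ± 0.15) and Aurkb (-0.80 ± 0.11) were called in the same direction in both. The chromosome 19 median was 0.40 here. Within 2 Mb the median was 0.43 around Fen1, 0.65 around Kif11, 0.29 around Cdca8 and -0.02 around Aurkb, so Kif11 stood near its neighbours. The sign was the same in both comparisons for 43 of 53 genes (81.1%) and for 79.3% of all genes.

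Of the further genes called, among helicase and licensing genes Mcm3 (0.55 ± 0.11), Mcm5 (0.50 ± 0.13), Mcm7 (0.32 ± 0.09) and Cdt1 (0.68 ± 0.15) rose, with Rrm2 and the polymerase subunit Pole. Among cyclins and mitotic kinases Ccne1, Ccna2, Ccnb1, Cdk1, Plk1 and Aurka rose, and among genes of the anaphase-promoting complex Ube2c and Cdc20. Cdk1, the mitotic kinase, measured 154, 148 and 183 CPM in shControl, 192 and 211 in shMap3k7, 107 and 118 in shChd1, and 183, 187, 241 and 246 in shDouble. All shDouble libraries were above shChd1 (0.93 ± 0.15, adjusted p = 0.0010 by edgeR), but their lowest value met the highest of shControl. Mcm3 measured 226, 230 and 210 CPM in shControl, 272 and 298 in shMap3k7, 186 and 211 in shChd1, and 261, 277, 301 and 318 in shDouble. All libraries with the Map3k7 hairpin were above all without it, with an adjusted p of 0.0022 by edgeR in shDouble against shChd1 and 0.053 in shMap3k7 against shControl.

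The epithelial and fibroblast marker sums given above lay furthest apart between these groups, and their part in the result was not tested. The count depended on the libraries of clone 4. The share of all genes called in the fits that follow is not given, so the fall cannot be read as particular to these genes. Without shChd1 replicate 1, 10 of the 53 genes were called, and without replicate 2, 13. With counts summed per line, which leaves 1 value for clone 4 with Chd1 hairpins, 4 remained: Fen1, Aurkb, Ube2c and Cdk1. Clone 4 also stood apart at a locus of cell cycle control: Cdkn2a and Cdkn2b, CDK inhibitor genes that lie next to each other, had 0 counts in shControl replicate 2 and both shChd1 libraries, against 17 to 61 and 260 to 633 counts in the other 8. A count of 0 allows up to 0.159 to 0.202 CPM in these 3 libraries. Its part in the members' values was not tested.

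**Figure D4:**
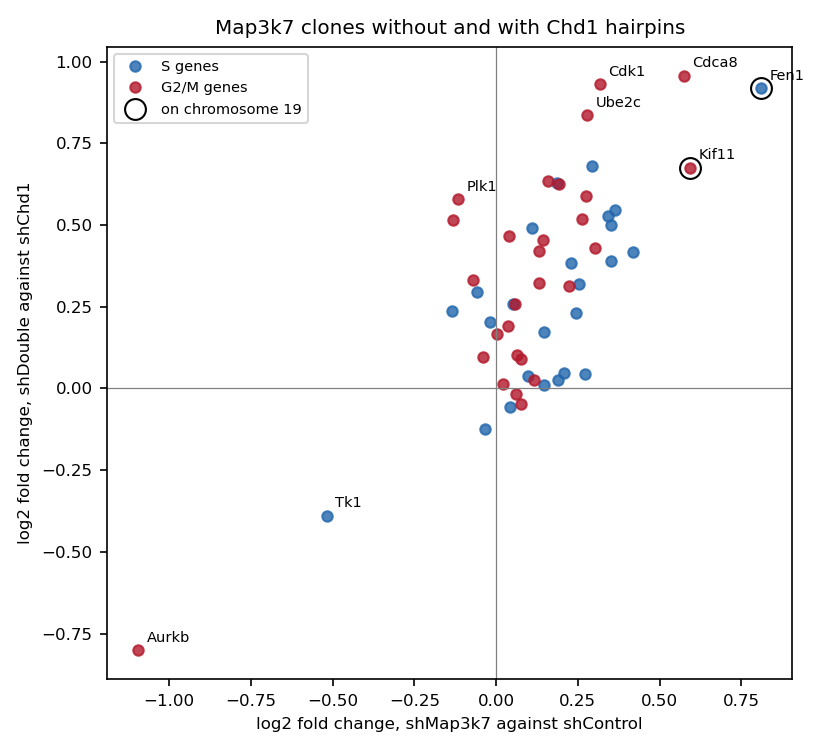
Log2 fold change of each of the 53 genes in shMap3k7 against shControl (x axis) and in shDouble against shChd1 (y axis); circled genes are on chromosome 19. Fen1, Kif11 and Cdca8 lie far to the upper right and Aurkb to the lower left, while Cdk1, Ube2c and Plk1 are high on the y axis and at 0.32, 0.28 and -0.12 on the x axis.

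The libraries labelled with both hairpins against control, shDouble against shControl, gave 7 of the 53 genes higher and 2 lower, beside 23.8% of all genes called, 10.2% higher and 13.6% lower. These libraries enter the comparisons above, so the values stand side by side and are no separate support. Beyond the 4 genes already named, Mcm3 (0.38 ± 0.09), Mcm5 (0.39 ± 0.12), Cdt1 (0.40 ± 0.13) and Cdk1 (0.41 ± 0.13) rose and Tk1, the salvage kinase for thymidine, fell. Tk1 measured 111, 133 and 132 CPM in shControl, 92.2 and 82.8 in shMap3k7, 115 and 94.5 in shChd1, and 98.7, 66.9, 89.6 and 64.1 in shDouble. Every shDouble library lay below every shControl library (-0.65 ± 0.16, adjusted p = 0.014 by edgeR), while shChd1 overlapped both groups. With line as a random block 4 genes were called and with counts summed per line 3, all among the 9. With chromosome medians subtracted 15 were called, of which 7 were among the 9. The share of all genes called in these alternative fits is not given beside the counts. Of the other pathway genes 36 rose and 2 fell (21.1%), such as Cdc25a (0.81 ± 0.08) and Cdca5 (0.79 ± 0.08).

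Chd1 knockdown in control clone 4, shChd1 against shControl, gave mostly negative differences, in 38 of 53 genes beside 7272 of all 14346. Of the 53 genes 0 rose and 2 fell, 3.77% beside 2.91% of all genes (0.662% higher, 2.24% lower), with medians of -0.11 over the S genes and -0.18 over the G2/M genes. Plk1, the kinase that drives centrosome maturation and mitotic entry, measured 155, 158 and 185 CPM in shControl, 163 and 143 in shMap3k7, 110 and 104 in shChd1, and 164, 176, 147 and 153 in shDouble. Both shChd1 libraries were the lowest of the 11 (-0.64 ± 0.12 against shControl, adjusted p = 0.035 by edgeR). Ube2c, the ubiquitin-conjugating enzyme of the anaphase-promoting complex, measured 139, 144 and 167 CPM in shControl, 188 and 176 in shMap3k7, 103 and 99.6 in shChd1, and 168, 161, 193 and 202 in shDouble. It was also lowest in shChd1 (-0.57 ± 0.12 against shControl, adjusted p = 0.047 by edgeR). The shChd1 libraries also had the lowest epithelial and highest fibroblast marker sums, whose part was not tested. These calls were marginal: leaving out any 1 library other than shControl replicate 2 left 0 genes called, and leaving out that one gave 4. Of the other pathway genes 0 rose and 6 fell (3.33%), namely Mybl2, the gene of B-Myb (-0.70 ± 0.15), Fzr1, Ccnf, E2f4, Tacc3 and Tuba1b.

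Libraries with Chd1 hairpins were also read against the library of their own line without them, with 1 library on each side. In clone 4 all 28 G2/M genes were lower with construct 96526 (median log2 difference -0.40) and 26 of 28 with 96528 (-0.20). The share of all genes lower in each pair is not given. The G2/M genes ran together over the libraries (median correlation 0.59), so they are not separate observations. The G2/M medians of clone 1 were -0.04 and 0.01, those of clone 7 0.07 and 0.14. For the S genes the medians were -0.14 and -0.07 (clone 4), 0.00 and 0.01 (clone 1) and 0.02 and 0.10 (clone 7). Plk1 differed by -0.52 and -0.61 in clone 4, against 0.00 and 0.10 for clone 1 and 0.03 and 0.10 for clone 7. The interaction (shDouble minus shMap3k7 minus shChd1 plus shControl) was tested on group means. It has no term for line, and its shControl mean takes in control lines besides clone 4. It is therefore no test of the differences within lines given above. The interaction called 0 of 53 genes by edgeR, beside 0 of all genes (0%). At an unadjusted p under 0.05 by edgeR were 6 of the 53 and 1998 of all 14346 genes. DESeq2 called 1 of the 53. Plk1 had the smallest p, with an interaction of 0.70 ± 0.16 (adjusted p = 0.18 by edgeR).

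**Figure D5:**
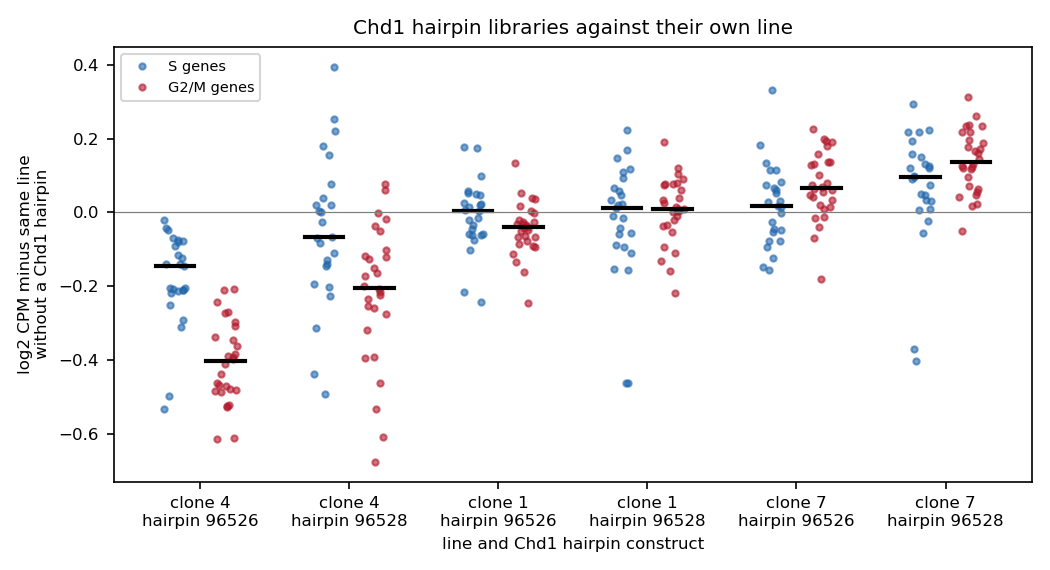
Log2 CPM of each library with a Chd1 hairpin minus the library of the same line without one, for the S genes and the G2/M genes (points, with bars at the median). The G2/M medians lie at -0.40 and -0.20 in clone 4 and between -0.04 and 0.14 in clones 1 and 7.

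Across lines, the 9 libraries of clones 4, 1 and 7 were fitted with line as a block. This called 0 of 53 genes by edgeR and 0 by DESeq2, beside 0.0271% of 14755 genes by edgeR. At an unadjusted p under 0.05 by edgeR were 0 of the 53 and 728 of all genes. In the Map3k7 clones alone, shDouble against shMap3k7 called 0 of 53 by edgeR and 0 by DESeq2, beside 0% of all genes by edgeR. There 0 of the 53 and 115 of all genes had an unadjusted p under 0.05 by edgeR. The log2 fold changes of the 53 there ran from -0.14 to 0.17, and Chd1 itself did not pass in this comparison, as given above.

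The share of these genes called was highest between the 2 Map3k7 clones, which carry the same hairpin vector by their labels. With the presence of a Chd1 hairpin as a covariate, clone 7 against clone 1 gave 28 genes higher and 4 lower, 60.4% of the 53 beside 31.5% of 13389 genes, and among all genes 14.3% were higher and 17.3% lower. The S genes gave 15 of 25 and the G2/M genes 17 of 28, with medians of 0.18 and 0.23. The 3 libraries of a clone share that clone, so the test is of these 2 lines. With chromosome medians subtracted 18 were called, all higher, beside 18.6% of all genes.

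Nusap1, a spindle microtubule protein, differed most: 58.0 CPM in shMap3k7 and 48.9 and 58.0 in shDouble of clone 1, against 91.3, 90.3 and 94.3 in clone 7 (0.74 ± 0.08, adjusted p = 5.9e-04 by edgeR). In shControl it stood at 54.3, 83.9 and 68.1 CPM and in shChd1 at 61.9 and 81.1, between or near the clones. Top2a measured 635, 652 and 651 CPM in clone 1 and 842, 851 and 931 in clone 7 (0.44 ± 0.05, adjusted p = 9.2e-04 by edgeR). The shControl libraries, at 627, 857 and 701 CPM, and shChd1, at 693 and 836, reached from the level of clone 1 to that of clone 7. Bub1, a spindle checkpoint kinase, measured 53.2, 55.2 and 53.6 CPM in clone 1 and 74.1, 81.5 and 77.4 in clone 7 (0.52 ± 0.06), with shControl at 49.6, 66.6 and 64.9 and shChd1 at 56.3 and 69.5. Kif20a, a motor of cytokinesis, measured 147, 139 and 142 CPM in clone 1 and 182, 191 and 197 in clone 7 (0.41 ± 0.06). Its shControl values, 144, 198 and 164, overlapped both clones, and shChd1, at 142 and 171, overlapped clone 1 alone.

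Of the S genes Pcna measured 249, 239 and 234 CPM in clone 1 and 308, 314 and 336 in clone 7 (0.41 ± 0.06). In shControl it stood at 208, 218 and 228 and in shChd1 at 198 and 231, so every Map3k7 hairpin library was above every other library, although shMap3k7 against shControl was not called (0.35, adjusted p = 0.20 by edgeR). Mcm10, which binds the helicase at firing origins, measured 53.2, 54.2 and 54.0 CPM in clone 1, 68.5, 71.7 and 75.1 in clone 7, 49.6, 55.6 and 48.8 in shControl and 52.2 and 56.3 in shChd1. Clone 7 alone stood apart (0.42 ± 0.06). Cdt1 measured 99.1, 96.1 and 100 CPM in clone 1, 114, 129 and 132 in clone 7, 81.5, 90.6 and 88.5 in shControl and 76.0 and 66.8 in shChd1. Its order, clone 7 over clone 1 over control over shChd1, held in every library (0.34 ± 0.06 between the clones). Gmnn, its inhibitor, measured 47.6, 46.5 and 47.3 CPM in clone 1, 57.3, 59.8 and 60.3 in clone 7, 42.4, 42.6 and 49.2 in shControl and 38.7 and 43.2 in shChd1. It was higher in clone 7 than in clone 1 by 0.33 ± 0.06.

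Ccnb1, the cyclin of Cdk1, measured 221, 205 and 205 CPM in clone 1, 244, 268 and 274 in clone 7, 192, 213 and 227 in shControl and 163 and 184 in shChd1. Cyclin and kinase were both higher in clone 7 than in clone 1, by 0.32 ± 0.06 for Ccnb1 and 0.31 ± 0.06 for Cdk1. Mcm2 measured 203, 206 and 220 CPM in clone 1, 232, 232 and 249 in clone 7, 162, 228 and 200 in shControl and 196 and 206 in shChd1, with clone 7 above all other libraries and clone 1 inside the shControl range (0.18 ± 0.05 between the clones).

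Not all members followed. Ccne1, the cyclin of the G1 to S step, ran opposite: 31.0, 31.1 and 29.1 CPM in clone 1, 22.7, 21.3 and 24.7 in clone 7, 29.6, 18.4 and 23.04 in shControl and 16.99 and 17.4 in shChd1. Clone 7 differed from clone 1 by -0.41 (adjusted p = 0.0087 by edgeR), while Ccne2, its paralog, was higher by 0.39. Cdc20, Tyms and Plk1 were the other 3 called lower in clone 7, by -0.28, -0.26 and -0.19. The chromosomes of these genes had negative medians over all genes tested. These were -0.30 for chromosome 7 (Ccne1 and Plk1), -0.24 for chromosome 4 (Cdc20) and -0.23 for chromosome 5 (Tyms). Within 2 Mb the median was -0.23 around Ccne1, -0.29 around Cdc20, -0.29 around Tyms and -0.23 around Plk1. Ccne2, also on chromosome 4, was higher with a median of -0.02 around it. Mcm7, on chromosome 5, stood at 0.10 with a median of -0.26 around it. The other members on these chromosomes had negative differences. The part of position was not tested. Mki67, the gene of the Ki-67 proliferation antigen, measured 787, 776 and 792 CPM in clone 1, 671, 710 and 750 in clone 7, 557, 826 and 707 in shControl and 651 and 760 in shChd1. The clones did not overlap, yet the difference of -0.15 was not called (adjusted p = 0.059 by edgeR), and it was opposite to that of Top2a. Within 2 Mb the median was -0.40 over 12 genes around Mki67 and -0.05 over 75 genes around Top2a. E2f1 measured 64.8, 67.0 and 70.4 CPM in clone 1, 72.2, 68.4 and 72.7 in clone 7, 67.3 and 69.5 in shChd1, and 46.3, 69.4 and 64.4 in shControl. It was called in no comparison and was low in shControl replicate 1 alone.

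Of the 180 other pathway genes tested 62 were higher and 13 lower in clone 7 than in clone 1 (41.7% beside 31.5%). Kinetochore, cohesin and condensin genes gave 18 higher and 0 lower of 31, such as Knl1 (0.51 ± 0.07), Smc4 (0.44 ± 0.06) and Ndc80 (0.42 ± 0.07). Fork and nucleotide genes gave 14 higher and 4 lower of 42, such as the nucleotide enzyme Dut (0.55 ± 0.05). Origin genes gave 5 higher of 17, with Orc4 first (0.50 ± 0.07). Spindle genes gave 16 higher and 4 lower of 39, with Psrc1 the lowest (-0.92 ± 0.11), mitotic entry genes 7 higher and 2 lower of 24, and G1 genes 2 higher and 1 lower of 21. Of the 6 CDK inhibitors 0 were higher and 2 lower. Cdkn2d, an inhibitor of Cdk4 and Cdk6, differed by -0.47 ± 0.11 (adjusted p = 0.015 by edgeR). Cdkn1a, p21, was lower in clone 7 (-0.51 ± 0.06, adjusted p = 0.0012 by edgeR), at 114, 114 and 101 CPM against 172, 153 and 144 in clone 1, beside 140, 83.9 and 116 in shControl and 80.9 and 53.6 in shChd1.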

How the data were processed

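The deposited table holds expected counts per gene, made by the authors with Bowtie2 and RSEM 1.3.1, per the submitters' processing notes. The deposited second table holds log2 values normalized by the authors with limma, also per those notes, and gave no result here. Between 7.83% and 9.11% of the expected counts of a library were not whole, and all were rounded. Counts of 14132371 to 23163709 per library set the precision. Genes were filtered (filterByExpr, minimum 10 counts, 15 in total), scaled by TMM and tested with edgeR 4.0.16 in R 4.3.3 (glmQLFit, glmQLFTest), with 1 mean per group over 11 libraries and Benjamini-Hochberg adjustment over all genes tested. 8 comparisons were made. The test was run on simulated counts of independent libraries. These had no shared line, so the check cannot speak for libraries that share one. Medians and correlations use log2 CPM with a prior count of 2, and their groups get no test. Positions come from GENCODE M21 (GRCm38). Alternatives were DESeq2 1.42.0, other scaling, no filter, fewer groups, limma 3.58.1 with line as a block, sums per line, chromosome medians, and leaving out each library.

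Values in every library are given for 10 genes fixed by name and for the 6 genes with the smallest adjusted p of each comparison, and of the other pathway genes up to 4 called per list. Birc5 and Incenp were set beside Aurkb and Cdca8 after their values were seen. The members, lists and tests were chosen with earlier results of these data known. Libraries of 1 line were checked for shared deviations: clone 7 minus clone 1 correlated between shMap3k7 and shDouble at 0.57 over 14346 genes, from the clone numbers in the labels.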

Additional observations from a re-analysis of the deposited data

Results flagged for a closer look

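Of 53 genes examined in the 4 shDouble libraries, 1 had a library far from the others. Aurkb measured 45.9 CPM in shDouble replicate 4 (clone 7, construct 96528) against 39.4, 39.4 and 40.1 in the other 3. The gap to the nearest library was 0.890 of the whole range, above Dixon's critical value for 4 samples. Chance flags about 1 in 20 groups, and 53 genes were examined. All 4 values were below every shControl and shChd1 library.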

How the results depend on the processing

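Counts of called members moved by over 1.5 times as follows, and the cause was not tested. They stand without the share of all genes called in the same fit, so a change cannot be read as particular to the members. For shMap3k7 against shControl (4 called) the fit of only those groups and the sums per line each gave 2, and leaving out 1 library gave 2 to 4, the 2 without either shMap3k7 library. For shDouble against shChd1 (23) sums per line gave 4 and leaving out 1 library 10 (shChd1 replicate 1) to 27. For shChd1 against shControl (2) DESeq2 gave 5, upper-quartile factors 1, only the groups compared 0, sums per line 0, and leaving out 1 library 0 to 4. For the interaction (0) DESeq2 gave 1 and leaving out 1 library 0 to 1, the 1 without shControl replicate 2. For shDouble against shControl (9) line as a replicate block gave 4, sums per line 3 and chromosome medians 15. For clone 7 against clone 1 (32) chromosome medians gave 18. The S median minus the G2/M median moved in shChd1 from 0.06 to 0.17 with chromosome medians subtracted and to between -0.015 and 0.15 with a library left out (shControl replicates 2 and 1), and in shMap3k7 to between 0.017 and 0.13. Without the replicate block the fit within lines still called 0. The block on line, which the shared clones support as a pairing, gave 3 called for shMap3k7 and 16 for shDouble against shChd1. No named gene changed direction. With 2 Map3k7 lines, more libraries of the same lines could not part line from Map3k7 knockdown. Chd1 hairpins vary within clones 4, 1 and 7, each with only 1 library without them.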

Other observations

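The 2 Chd1 constructs could be set side by side in 3 lines, with 1 library each, and construct 96528 minus 96526 was read in each line after the values were seen. All 3 differences were positive for 13 of 25 S genes (52.0%) and 17 of 28 G2/M genes (60.7%), beside 13.9% of 14346 genes. All 3 were negative for 2 S genes and 0 G2/M genes, beside 16.5% of all genes. Tk1, chosen after its values were seen, had a log2 CPM difference of -0.28 in clone 4, -0.56 in clone 1 and -0.48 in clone 7. Rrm1, which makes deoxynucleotides by the reductase route, had differences of 0.29, 0.16 and 0.25 in the same lines. Construct was not tested as a factor, and passage differed between the constructs in clone 4 alone.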
